A study of Arabidopsis thaliana with 18 samples.

Results

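The SnRK2 kinases of Arabidopsis thaliana are a family of 10 serine/threonine protein kinases, SNRK2.1 to SNRK2.10, and their transcripts were followed here in seedlings exposed to abscisic acid (ABA) or to osmotic stress. The family was taken as the 10 rows of the deposited table that carry these genes' locus identifiers, out of 33082 genes listed. All 10 passed the filter on low values, which kept 21727 genes that reached 1 TPM (transcript abundance scaled for gene length and for the library's total) in 3 or more of the 18 libraries. The study compared wild type (WT) with a bon123 mutant, both in the Col-0 background. The mutant's genotype is written bon123t in the labels, and the series title calls it a triple mutant. BON1, BON2 and BON3 encode copines, which are calcium-dependent membrane-binding proteins. Seedlings had grown vertically for 9 days and were then kept on 1/2 MS medium as mock, or with 100 µM ABA, or with 300 mM mannitol, an osmoticum. The sample labels give 12 hours of treatment and the series text gives 24 hours. Each of the 6 groups of genotype and treatment had 3 libraries of total RNA from whole seedlings. The labels do not tell whether the 3 are separate cultures, and p-values here refer to the spread among these libraries, which may be technical.

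SnRK2 kinases transmit ABA and osmotic signals. In the absence of ABA, clade A protein phosphatases 2C (PP2Cs) hold the ABA-activated members inactive. ABA bound to its PYR/PYL receptors captures the phosphatases, and the released kinases, after phosphorylation by RAF-like kinases, act on ABF transcription factors and on ion channels. The family is divided into subclass III (SNRK2.2, SNRK2.3 and SNRK2.6, also called OST1), whose kinases are strongly activated by ABA, subclass II (SNRK2.7 and SNRK2.8), weakly or not activated by it, and subclass I (SNRK2.1, SNRK2.4, SNRK2.5, SNRK2.9 and SNRK2.10), whose osmotically activated members act on the mRNA decapping machinery. Kinase activity was not measured here: every value is a transcript level.

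BON1 separated the genotypes, with 10.1 TPM or more in each of 9 WT libraries and 1.66 TPM or less in each of 9 bon123 libraries. For BON2 the lowest WT library had 21.3 TPM and the highest bon123 library 16.2 TPM, and BON3, which did not pass the filter, went the other way: it averaged 0.13 TPM in WT mock and 0.67 TPM in bon123 mock, and was above WT in bon123 in every treatment without overlap. TPM values carry no read depth, which is unknown. The libraries differed in tissue markers: the summed level of 6 leaf mesophyll markers was 31505 to 33932 TPM in WT mock, 22055 to 25760 TPM in WT ABA and 14746 to 19305 TPM in WT mannitol, against 911 to 1243, 171 to 183 and 822 to 895 TPM in the matching bon123 groups. All 6 were lower in bon123 in each treatment, with none at 0 in every library of a group. Of all genes, 33.7%, 47.5% and 49.3% were called lower in bon123 in mock, ABA and mannitol. The 7 root markers were led by PYK10, and summed to 1921 to 2655 TPM in WT mock and 15139 to 16493 TPM in bon123 mock. Without PYK10 those ranges were 69.1 to 102 and 71.9 to 94.98 TPM. With ABA the root marker sum in bon123 was 1460 to 1987 TPM, where 4 of the 7 were called lower, PYK10 (-3.24), SHR (-2.29), CASP1 (-2.0) and SCR (-1.68) on the log2(TPM + 1) scale, and 2 higher. The lower count is near the share of all genes called there, 55.5% lower and 15.1% higher. The 3 vascular markers summed to 62.7 to 73.8 TPM in WT mock, 118 to 142 TPM in WT ABA and 134 to 191 TPM in WT mannitol, with 2 and 3 of them called higher than in mock (18.9% and 25.5% of all genes). In bon123 they summed to 104 to 120 TPM in mock, 54.5 to 67.1 TPM with ABA and 122 to 127 TPM with mannitol. SUC2 made up most of each sum, with means of 55.03 TPM in WT mock and 94.41 TPM in bon123 mock. The 3 did not move together: in mock, SUC2 (0.77) and APL (0.61) were called higher in bon123 than in WT, and IRX3 lower (-0.81). Within bon123, 2 of the 3 were called lower with ABA and none higher. With mannitol 1 was called higher there and none lower. Nuclear rRNA made up 5.90% to 10.1% of the TPM of the 3 bon123 mannitol libraries, 6.10% of WT mock replicate 1, and at most 2.21% elsewhere. Replicate 3 of bon123 ABA stood apart from its group, where correlations across genes between replicates ran from 0.958 to 0.989. Every difference below, between genotypes or between treatments, was measured between libraries that also differ in some of these markers; the part of the markers in the results was not tested, and in whole seedlings fewer cells of a type and less RNA per cell cannot be told apart.

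**Figure D1:**
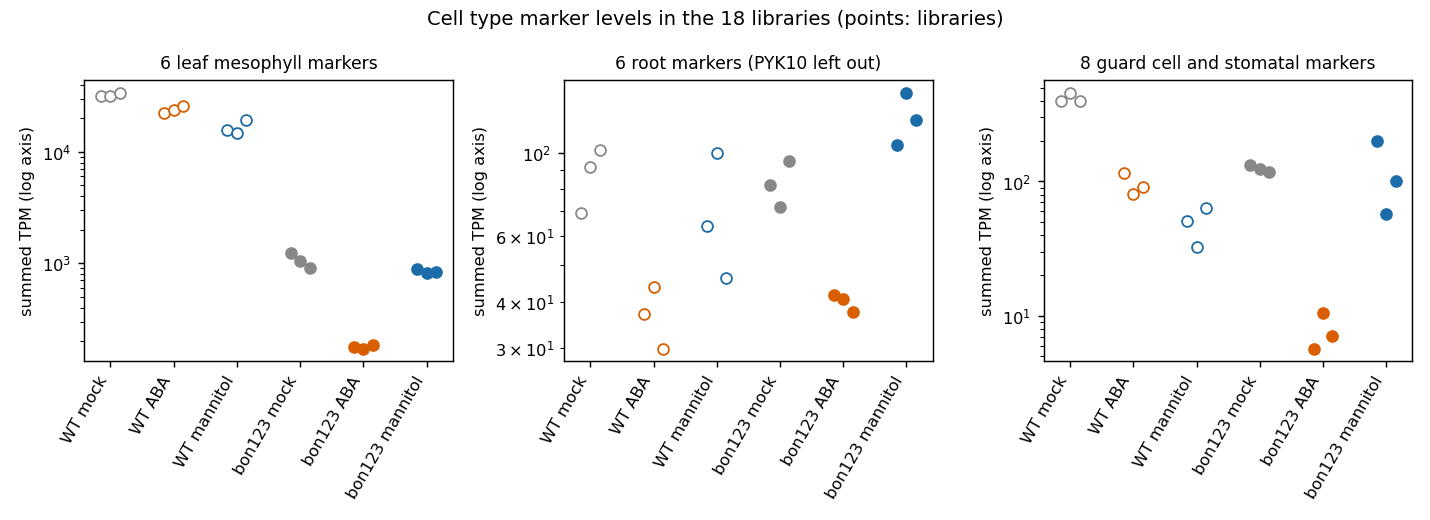
Summed TPM (log axis) of leaf mesophyll, root and stomatal marker genes in each of the 18 libraries, by group (3 points each). The leaf markers lie at 14746 TPM or more in every WT library and at 1243 TPM or less in every bon123 library.

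Upstream sequence is shown for 4 members. OST1 and SNRK2.7 rose with ABA in both genotypes, as did SNRK2.1 by less. SNRK2.10 was also called higher by less, but in bon123 that call held in only 3 of 18 fits that leave out a library. The levels of SNRK2.8 and SNRK2.9 differed most between genotypes without stress. Each line is the 250 bases that end just before the annotated gene start, from the RefSeq genome TAIR10.1, written 5′ to 3′ on the gene's strand. Capitals mark ACGTG or its reverse complement CACGT, the core letters of the ABA response element that ABF factors bind. The window of OST1 is chr4:16271495-16271744, plus strand, that of SNRK2.7 chr4:18551184-18551433, minus strand, that of SNRK2.8 chr1:29459494-29459743, minus strand, and that of SNRK2.9 chr2:9806732-9806981, minus strand.
SNRK2.6: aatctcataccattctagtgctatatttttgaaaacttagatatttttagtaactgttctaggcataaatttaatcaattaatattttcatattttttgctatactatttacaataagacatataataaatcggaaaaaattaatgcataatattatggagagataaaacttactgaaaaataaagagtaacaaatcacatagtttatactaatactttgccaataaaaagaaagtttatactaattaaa
SNRK2.7: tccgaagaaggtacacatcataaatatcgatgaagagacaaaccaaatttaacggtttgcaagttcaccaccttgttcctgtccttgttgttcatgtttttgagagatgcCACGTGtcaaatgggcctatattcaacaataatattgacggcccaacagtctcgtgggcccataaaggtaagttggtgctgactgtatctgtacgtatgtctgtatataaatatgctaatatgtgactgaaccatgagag
SNRK2.8: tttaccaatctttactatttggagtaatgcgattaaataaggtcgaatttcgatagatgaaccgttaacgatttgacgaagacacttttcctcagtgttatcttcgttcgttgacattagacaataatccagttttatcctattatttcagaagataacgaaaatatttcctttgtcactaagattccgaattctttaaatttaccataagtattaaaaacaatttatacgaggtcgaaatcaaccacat
SNRK2.9: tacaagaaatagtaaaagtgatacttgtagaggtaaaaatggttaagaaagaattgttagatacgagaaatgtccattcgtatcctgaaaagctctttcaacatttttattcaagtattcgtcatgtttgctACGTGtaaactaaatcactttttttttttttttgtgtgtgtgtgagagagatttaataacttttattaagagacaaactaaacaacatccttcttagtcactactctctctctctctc
In SNRK2.7 the capitals are a CACGTG, which holds ACGTG on both strands in overlap, and SNRK2.3 has a CACGTG in its window too. SNRK2.9 has a single ACGTG. The other 7 members, OST1 and SNRK2.8 among them, hold no ACGTG in this window. Thus 3 of the 10 members had the letters, as did 22.9% of the 27443 windows of this length before annotated genes. CCGAC, the core of the dehydration-responsive element, or its reverse complement GTCGG was in 0 of 10 members and in 12% of all windows. The window of SNRK2.7 overlaps a neighbouring gene, AT4G40011. A match or its lack describes these letters only.

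The coding sequences of the 10 genes run from 1020 to 1116 bases and were 67.3% to 86.8% identical in pairs. The closest pairs were SNRK2.1 with SNRK2.5 and SNRK2.4 with SNRK2.10, both at 86.8%, and SNRK2.2 with SNRK2.3, at 84.4%. Their longest identical stretches were 32, 59 and 45 bases, so reads that fall within such a stretch may have been split between the pair. The remaining pairs were at most 76.9% identical, with no identical stretch over 29 bases. Genes that overlap a neighbour are a further uncertainty, because no source used here gives the strand setting. SNRK2.5 shares 382 bases with AT5G63640 on the opposite strand, which averaged 15.6 to 54.7 TPM by group, above SNRK2.5 itself. SNRK2.8 shares 169 bases with AT1G78280 on the opposite strand, which averaged 8.46 to 25.9 TPM. That neighbour was above SNRK2.8 in WT ABA (12.2 against 8.17 TPM), about level with it in WT mannitol (13.9 against 13.6 TPM), and below it in the other groups. SNRK2.3 shares 383 bases with AT5G09785, at most 1.04 TPM on average, and SNRK2.1 and SNRK2.4 share 6 and 13 bases with a neighbour.

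In WT mock the most abundant SnRK2 transcripts were those of subclass I. SNRK2.1 averaged 59.0 ± 4.09 TPM (SD, n = 3), SNRK2.4 averaged 56.5 ± 4.40 TPM and SNRK2.10 averaged 52.8 ± 4.41 TPM, and these 3 overlapped each other in their replicate ranges. SNRK2.2 followed at 34.9 ± 1.67 TPM, apart from its neighbours. OST1 at 20.5 ± 2.03 TPM and SNRK2.8 at 18.9 ± 0.542 TPM overlapped. SNRK2.3 came next at 16.7 ± 2.77 TPM, then SNRK2.7 at 7.41 ± 1.82 TPM. SNRK2.5 at 2.97 ± 0.477 TPM and SNRK2.9 at 2.28 ± 1.005 TPM were the lowest and overlapped. The order differed in bon123 mock, where SNRK2.8 was first at 241 ± 21.5 TPM, SNRK2.10 second at 149 ± 11.5 TPM, and SNRK2.9 reached 74.3 ± 4.83 TPM. In that order those 3 overlapped no neighbour, and SNRK2.5 stayed last at 1.36 ± 0.565 TPM.

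**Figure D2:**
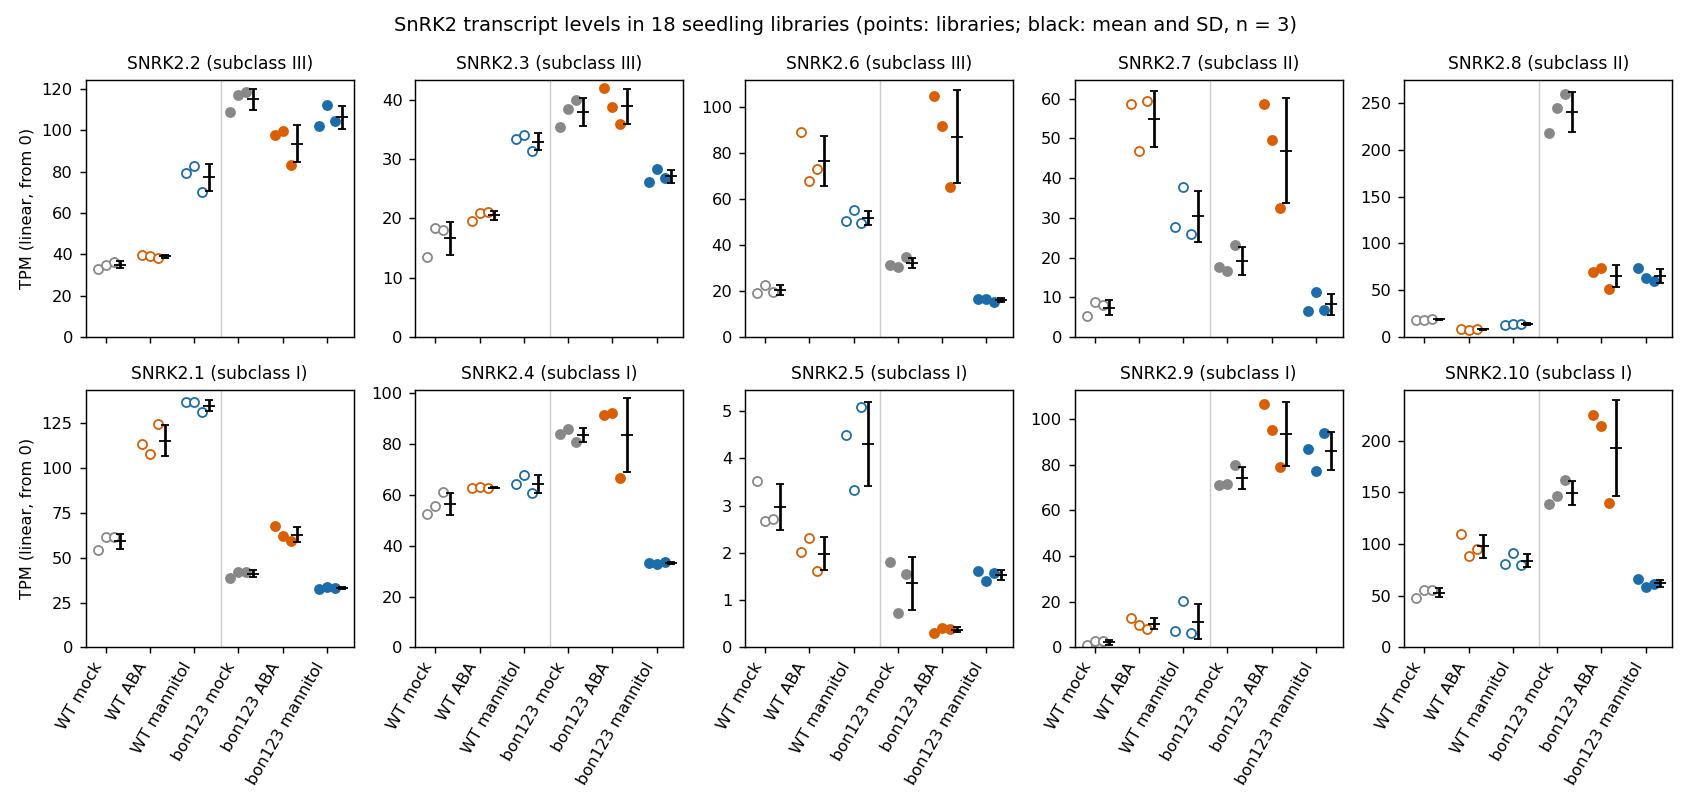
TPM (linear axes from 0, 1 panel per gene) of the 10 SnRK2 genes in each library, open points for WT and filled points for bon123, with the mean and SD of 3 libraries in black. SNRK2.8 and SNRK2.9 are higher in all 9 bon123 libraries than in any WT library. OST1, SNRK2.7 and SNRK2.1 rise with ABA in both genotypes without overlap with mock.

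Changes were tested with limma on log2(TPM + 1), a two-sided moderated test over all 18 libraries with Benjamini-Hochberg adjustment over the 21727 genes, and a gene was called at an adjusted p under 0.05. Log2 changes are on the log2(TPM + 1) scale with their standard error, which understates the change of low genes. In WT, ABA raised 6 of the 10 SnRK2 transcripts and lowered 1, in a comparison where 49.5% of all genes were called, 18.9% higher and 30.6% lower. SNRK2.1, SNRK2.3, OST1, SNRK2.7, SNRK2.9 and SNRK2.10 rose and SNRK2.8 fell. Mannitol raised 7 members in WT, the same 6 and SNRK2.2, and again lowered SNRK2.8, where 50.5% of all genes were called, 25.5% higher and 25.0% lower. The median change of the 10 members was 0.59 with ABA and 1.04 with mannitol, beside -0.11 and 0.016 over all genes. In bon123, ABA raised 4 members and lowered 3, with 70.6% of all genes called, 15.1% higher and 55.5% lower. Mannitol raised none of the 10 in bon123 and lowered 7, with 61.5% of all genes called, 12.6% higher and 48.8% lower. No member was higher at an unadjusted p under 0.05 in that last comparison. The median change of the members in bon123 was 0.18 with ABA and -0.71 with mannitol, beside -0.51 and -0.36 over all genes. The comparisons within a genotype share their mock libraries. The TPM ranges of the treated and mock groups did not overlap for 10 members with ABA in WT (61.5% of all genes), 8 with mannitol in WT (61.0%), 6 with ABA in bon123 (72.2%) and 7 with mannitol in bon123 (71.6%).

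The scaling bears on the bon123 counts. With median-of-ratios scaling the median of all genes moved up by 0.48 in the bon123 ABA comparison and by 0.37 in the bon123 mannitol comparison. The bon123 counts then became 8 members up and 2 down with ABA, and 3 up and 5 down with mannitol. Directions are therefore given below also relative to the median of all genes where they depend on it. In WT neither median moved by more than 0.1 under any of 5 other scalings. Leaving out replicate 3 of bon123 ABA left 7 members called in each of the bon123 comparisons.

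**Figure D3:**
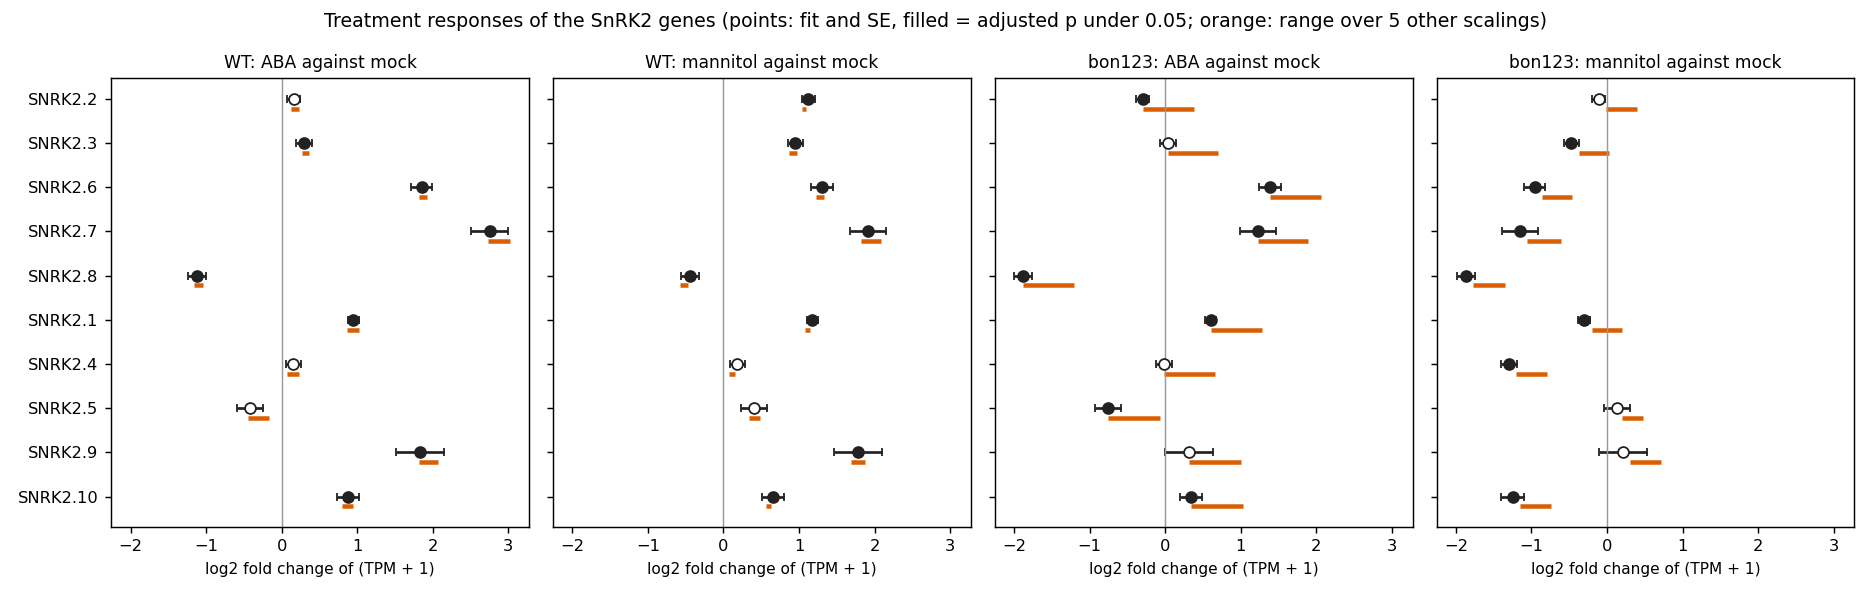
Log2 fold change of (TPM + 1) against mock for each SnRK2 gene in the 4 treatment comparisons. Points and bars are the fitted change and its SE, filled where the adjusted p is under 0.05, and the orange lines span 5 other scalings: in WT the orange lines lie close to the points, and in bon123 they extend to higher values and reach across 0 for SNRK2.2 and SNRK2.4 with ABA and for SNRK2.1, SNRK2.2 and SNRK2.3 with mannitol.

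Subclass III holds the kinases at the core of the ABA response. OST1 (SNRK2.6, AT4G33950) acts in guard cells, where it drives stomatal closure by phosphorylating the anion channel SLAC1. In WT, OST1 stood at 19.1, 22.8 and 19.5 TPM in mock, at 89.1, 68.0 and 73.0 TPM with ABA, and at 50.7, 55.2 and 49.8 TPM with mannitol. The 3 groups did not overlap, with ABA highest. The rise was 1.85 ± 0.14 with ABA (adjusted p = 4.5e-08) and 1.304 ± 0.14 with mannitol (adjusted p = 1.73e-06). In bon123, OST1 stood at 31.3, 30.7 and 34.8 TPM in mock, at 105, 91.7 and 65.3 TPM with ABA, and at 16.7, 16.4 and 15.2 TPM with mannitol. ABA libraries were above and mannitol libraries below every mock library. OST1 rose by 1.38 ± 0.14 with ABA (adjusted p = 2.99e-07) and fell by 0.96 ± 0.14 with mannitol (-0.96, adjusted p = 3.3e-05), and both kept direction and call under all 31 alternatives. The OST1 levels of the genotypes with ABA overlapped, at a difference of 0.17 ± 0.14 (adjusted p = 0.301, 95% interval -0.14 to 0.47). Across the 5 other scalings that difference ran from 0.14 to 0.60, and only 3 of them left it uncalled, so the lack of a call depends on the scaling. Without bon123 ABA replicate 3 that difference was 0.36 and was called (adjusted p = 0.00878).

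Markers of the cells OST1 is known from had lower summed levels with each treatment than in mock in WT. The 8 guard cell and stomatal markers summed to 394 to 459 TPM in WT mock, 80.8 to 116 TPM with ABA and 32.6 to 63.3 TPM with mannitol. In bon123 they summed to 117 to 132 TPM in mock, 5.71 to 10.48 TPM with ABA and 56.9 to 200 TPM with mannitol. EPF1 and SPCH were at 0 in all 3 bon123 ABA libraries, and SPCH also in bon123 mannitol. GC1, a guard cell marker, made up most of the sum in both mock groups, in WT ABA and in bon123 mannitol: it averaged 358 TPM in WT mock, 112 TPM in bon123 mock, 56.8 TPM in WT ABA, 23.9 TPM in WT mannitol and 114 TPM in bon123 mannitol. In bon123 ABA, GC1 averaged 1.55 TPM, so the lower sum there is mostly the fall of this 1 gene. In WT 3 of the 8 were called lower with ABA and 6 with mannitol, none higher, while TMM and MUTE were at 0.17 and 0.11 with ABA. Of all genes, 30.6% were called lower with ABA in WT, near the 3 of 8, and 25.0% with mannitol. Within bon123, 3 of the 8 were called lower with ABA and 2 with mannitol, none higher, beside 55.5% and 48.8% of all genes called lower. Under mannitol 7 of the 8 were lower in bon123 than in WT, and GC1 was higher, beside 49.3% and 25.4% of all genes. In the bon123 ABA libraries, where the sum of these markers was lowest, OST1 averaged 87.3 ± 20.1 TPM (SD, n = 3). In mock, 7 of the 8 were lower in bon123 and none higher, beside 33.7% and 40.1% of all genes. The part of these markers in the OST1 values was not tested.

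SNRK2.2 (AT3G50500) and SNRK2.3 (AT5G66880) act with OST1 in the ABA response of seeds and seedlings. SNRK2.2 in WT was at 33.2, 35.0 and 36.5 TPM in mock, 39.7, 39.4 and 38.2 TPM with ABA, and 79.2, 82.6 and 70.05 TPM with mannitol. In bon123 it was at 109, 117 and 119 TPM in mock, 97.6, 99.7 and 83.4 TPM with ABA, and 102, 112 and 104 TPM with mannitol. Every bon123 library was above every WT library. In WT the gene rose with mannitol (1.12 ± 0.085, adjusted p = 3.09e-08) and missed the threshold with ABA, at 0.16 ± 0.085 (adjusted p = 0.134), though 3 of 5 other scalings called it, at up to 0.23. The bon123 ABA value, -0.30 ± 0.085 (adjusted p = 0.00522), was 0.22 above the median of all genes and turned to 0.38 with median-of-ratios scaling, so its direction depends on the scaling. With mannitol in bon123 SNRK2.2 was at -0.11 ± 0.085 (adjusted p = 0.267), which 1 of 5 other scalings kept and median-of-ratios scaling took to 0.40.

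SNRK2.3 in WT was at 13.5, 18.4 and 18.1 TPM in mock, 19.5, 20.9 and 21.1 TPM with ABA, and 33.4, 34.0 and 31.4 TPM with mannitol. The bon123 libraries were at 35.4, 38.5 and 39.98 TPM in mock, 42.0, 38.7 and 36.0 TPM with ABA, and 26.1, 28.4 and 26.8 TPM with mannitol. Mannitol gave the highest WT levels and the lowest bon123 levels of this gene. It rose with mannitol in WT (0.95 ± 0.10, adjusted p = 1.68e-06). Its smaller rise with ABA in WT (0.29 ± 0.10, adjusted p = 0.0281) rests on WT mock replicate 1, without which it was 0.16 and not called (adjusted p = 0.168), and was also not called without WT ABA replicate 2 or 3 (adjusted p = 0.0708 and 0.0795). With ABA in bon123 it was at 0.03 ± 0.10 (adjusted p = 0.801), or 0.55 relative to the median of all genes. It was called as higher there in 4 of 5 other scalings, at up to 0.70 with median-of-ratios, so the lack of a call depends on the scaling. The bon123 mannitol value of -0.47 ± 0.10 (adjusted p = 0.00104) was -0.11 relative to the median of all genes, and 0.027 with median-of-ratios scaling.

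The 2 genes of subclass II moved in opposite directions with ABA in both genotypes and with mannitol in WT, and both fell with mannitol in bon123. SNRK2.7 (AT4G40010), which acts in drought-responsive gene expression together with SNRK2.8, was at 5.34, 8.78 and 8.10 TPM in WT mock, 58.6, 46.9 and 59.4 TPM with ABA, and 27.7, 37.8 and 25.8 TPM with mannitol. The increase with ABA, 2.75 ± 0.24 (adjusted p = 1.74e-07) or 7.42-fold in mean TPM, was the largest of any member in WT in the fit, and mannitol gave 1.91 ± 0.24 (adjusted p = 7.31e-06). In bon123, SNRK2.7 stood at 17.6, 16.6 and 23.2 TPM in mock, 58.6, 49.6 and 32.5 TPM with ABA, and 6.52, 11.2 and 6.87 TPM with mannitol. As for OST1, the bon123 ABA libraries were above and the mannitol libraries below all mock libraries. The values were 1.22 ± 0.24 with ABA (adjusted p = 0.000272) and -1.15 ± 0.24 with mannitol (adjusted p = 0.00065). The ABA levels of the genotypes overlapped, at -0.26 ± 0.24 for bon123 against WT (adjusted p = 0.342, 95% interval -0.77 to 0.25), and the sign turned with median-of-ratios scaling, to 0.16.

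SNRK2.8 (AT1G78290) is known for promoting growth and for phosphorylating the immune coactivator NPR1. It was the one member that fell with both treatments in both genotypes. In WT it was at 18.5, 18.6 and 19.5 TPM in mock, 8.19, 7.96 and 8.36 TPM with ABA, and 12.4, 14.1 and 14.3 TPM with mannitol. In bon123 the levels were 217, 245 and 260 TPM in mock, 69.8, 73.6 and 51.5 TPM with ABA, and 73.6, 62.8 and 59.6 TPM with mannitol. The lowest bon123 library, at 51.5 TPM, was still above the highest WT library, at 19.5 TPM. The changes in WT were -1.12 ± 0.12 with ABA (adjusted p = 1.77e-06) and -0.45 ± 0.12 with mannitol (adjusted p = 0.00565). In bon123 they were -1.89 ± 0.12 with ABA (adjusted p = 1.05e-09) and -1.87 ± 0.12 with mannitol (adjusted p = 9.29e-09), or -1.37 and -1.504 relative to the median of all genes. All 4 kept direction and call under the 31 alternatives.

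Within subclass I, SNRK2.1 (AT5G08590), SNRK2.4 (AT1G10940), SNRK2.5 (AT5G63650) and SNRK2.10 (AT1G60940) encode kinases that osmotic stress activates and that phosphorylate the decapping scaffold VARICOSE. SNRK2.1 in WT was at 54.3, 61.5 and 61.3 TPM in mock, 113, 107 and 124 TPM with ABA, and 137, 136 and 131 TPM with mannitol. Its bon123 levels were 38.9, 42.2 and 42.0 TPM in mock, 67.4, 61.8 and 59.0 TPM with ABA, and 32.5, 33.7 and 33.1 TPM with mannitol. Each treatment raised it in WT, by 0.95 ± 0.078 with ABA (adjusted p = 9.18e-08) and 1.18 ± 0.078 with mannitol (adjusted p = 7.56e-09). ABA raised it in bon123 too (0.60 ± 0.078, adjusted p = 4.29e-06). The bon123 mannitol value was -0.30 ± 0.078 (adjusted p = 0.00356), 0.063 above the median of all genes, and it turned to 0.20 with median-of-ratios scaling. SNRK2.1 was the abundant member with less transcript in bon123 than in WT, in every treatment and without overlap.

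SNRK2.10 has been linked, with SNRK2.4, to root growth under salt. In WT its levels were 47.7, 55.1 and 55.6 TPM in mock, 110.1, 88.5 and 95.3 TPM with ABA, and 80.6, 91.6 and 79.8 TPM with mannitol. In bon123 they were 139, 147 and 162 TPM in mock, 225, 214 and 139 TPM with ABA, and 65.8, 58.6 and 61.7 TPM with mannitol. Replicate 3 of bon123 ABA fell among the mock libraries, and the other 2 were above all of them. SNRK2.10 rose in WT by 0.88 ± 0.15 with ABA (adjusted p = 0.000134) and 0.66 ± 0.15 with mannitol (adjusted p = 0.00137), and was lower with mannitol in bon123 (-1.25 ± 0.15, adjusted p = 3.1e-06). The bon123 ABA value of 0.34 ± 0.15 (adjusted p = 0.0494) was 0.85 above the median of all genes, and leaving out 1 library kept the call in 3 of 18 cases.

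SNRK2.4 was called with neither treatment in WT. Its WT libraries stood at 52.6, 55.7 and 61.3 TPM in mock, 62.8, 63.3 and 62.8 TPM with ABA, and 64.2, 68.0 and 60.8 TPM with mannitol, at 0.16 ± 0.10 (adjusted p = 0.238, 95% interval -0.066 to 0.38) and 0.18 ± 0.10 (adjusted p = 0.156, 95% interval -0.037 to 0.41). The bon123 libraries were at 84.0, 85.9 and 80.8 TPM in mock, 91.4, 92.3 and 66.7 TPM with ABA, and 33.3, 32.7 and 33.8 TPM with mannitol. The mannitol libraries of bon123 were the lowest of all 18. That drop was -1.302 ± 0.10 (adjusted p = 7.11e-08), while ABA in bon123 gave -0.017 ± 0.10 (adjusted p = 0.897), or 0.50 relative to the median of all genes. That ABA value kept its sign in 1 of 5 other scalings and reached 0.66 with median-of-ratios, where it was called. Without bon123 ABA replicate 3 both WT values were called (adjusted p = 0.0452 and 0.0195).

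SNRK2.5 and SNRK2.9 were the rare members of subclass I in WT. SNRK2.5 was at 3.52, 2.67 and 2.72 TPM in WT mock, 2.02, 2.31 and 1.61 TPM with ABA, and 4.49, 3.33 and 5.09 TPM with mannitol. In bon123 the values were 1.80, 0.72 and 1.55 TPM in mock, 0.31, 0.41 and 0.39 TPM with ABA, and 1.61, 1.41 and 1.57 TPM with mannitol. The gene fell with ABA in bon123 (-0.75 ± 0.17, adjusted p = 0.00102), a value that was -0.069 with quantile normalization and -0.23 with the length trend removed, in both cases without a call. Its WT values missed the threshold, at -0.41 ± 0.17 with ABA (adjusted p = 0.0578) and 0.41 ± 0.17 with mannitol (adjusted p = 0.059), as did bon123 mannitol at 0.13 ± 0.17 (adjusted p = 0.528). Across the 5 other scalings the bon123 mannitol value ran from 0.19 to 0.48, and only 2 of them left it uncalled, so this depends on the scaling. Without the strand setting, reads in the 382 bases it shares with its opposite-strand neighbour may belong to either gene. With ABA in bon123 the 2 genes went different ways, SNRK2.5 from a mean of 1.36 to 0.37 TPM and AT5G63640 from 46.2 to 54.7 TPM.

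SNRK2.9 (AT2G23030), a member whose kinase has been reported as not activated by osmotic stress, was at 1.12, 2.86 and 2.86 TPM in WT mock, 13.1, 10.01 and 8.24 TPM with ABA, and 7.21, 20.2 and 6.35 TPM with mannitol. In bon123 it was at 71.3, 71.8 and 79.9 TPM in mock, 107, 95.1 and 78.9 TPM with ABA, and 87.0, 77.1 and 94.0 TPM with mannitol. The highest WT library, WT mannitol replicate 2 at 20.2 TPM, was below the lowest bon123 library at 71.3 TPM. It rose in WT by 1.84 ± 0.32 with ABA (adjusted p = 0.000185) and 1.78 ± 0.32 with mannitol (adjusted p = 0.00022). In bon123 neither treatment was called, at 0.32 ± 0.32 with ABA (adjusted p = 0.388) and 0.21 ± 0.32 with mannitol (adjusted p = 0.6). The ABA value was 0.83 relative to the median of all genes, and 2 of 5 other scalings called it, at up to 0.998.

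Without stress, 8 of the 10 SnRK2 transcripts were higher in bon123 than in WT and the other 2, SNRK2.1 and SNRK2.5, were lower, in a comparison where 73.8% of all genes were called, 40.1% higher and 33.7% lower. No member overlapped between the genotypes, as was the case for 80.6% of all genes. SNRK2.9 was 32.6-fold higher in mean TPM (log2 change 4.57 ± 0.32, adjusted p = 2.1e-09) and SNRK2.8 was 12.8-fold higher (3.601 ± 0.12, adjusted p = 3.01e-13). SNRK2.2 (1.69 ± 0.085), SNRK2.10 (1.48 ± 0.15), SNRK2.7 (1.27 ± 0.24) and SNRK2.3 (1.15 ± 0.10) followed. OST1 (0.63 ± 0.14) and SNRK2.4 (0.56 ± 0.10) were higher by less. The lower ones were SNRK2.5 (-0.78 ± 0.17) and SNRK2.1 (-0.51 ± 0.078). All 10 kept their direction and call under every alternative that could be run for them. The median change of the 10 was 1.21, beside 0.13 over all genes, and the leaf marker sums of the mock libraries, at most 1243 TPM in bon123 and at least 31505 TPM in WT, differ in the same comparison.

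Between the genotypes under ABA, 6 members were higher in bon123 and 2 lower, with 76.4% of all genes called, 28.9% higher and 47.5% lower. These 8 did not overlap between genotypes, as for 75.0% of all genes. The 6 were SNRK2.9 (3.06 ± 0.32), SNRK2.8 (2.83 ± 0.12), SNRK2.2 (1.235 ± 0.085), SNRK2.10 (0.94 ± 0.15), SNRK2.3 (0.89 ± 0.10) and SNRK2.4 (0.39 ± 0.10). SNRK2.1 (-0.86 ± 0.078) and SNRK2.5 (-1.12 ± 0.17) were again the lower ones, the latter called in 4 of 5 other scalings. Under mannitol, 3 members were higher in bon123 and 7 lower, with 74.6% of all genes called, 25.4% higher and 49.3% lower. None of the 10 overlapped between genotypes, as for 78.3% of all genes. SNRK2.9 (3.0 ± 0.32, adjusted p = 3.84e-07), SNRK2.8 (2.18 ± 0.12, adjusted p = 1.33e-10) and SNRK2.2 (0.46 ± 0.085, adjusted p = 0.000151) were higher. SNRK2.1 (-1.99 ± 0.078), SNRK2.7 (-1.79 ± 0.24), OST1 (-1.63 ± 0.14), SNRK2.5 (-1.05 ± 0.17) and SNRK2.4 (-0.93 ± 0.10) were lower under every alternative that could be run. SNRK2.10 (-0.43 ± 0.15, adjusted p = 0.0147) and SNRK2.3 (-0.27 ± 0.10, adjusted p = 0.027) were lower in the fit, but were at -0.072 and 0.085 relative to the median of all genes. Without WT mannitol replicate 2 SNRK2.10 was not called (-0.37, adjusted p = 0.0583). SNRK2.3 was not called in 4 of the 18 fits that leave out a library, those without 1 of 2 WT mannitol libraries (replicates 1 and 2) or 1 of 2 bon123 libraries given mannitol (replicates 1 and 3; adjusted p from 0.0625 to 0.0773). The nuclear rRNA share was higher in the bon123 mannitol libraries, and leaving rRNA and organelle RNA out of the totals gave 3 members higher and 6 lower. The other 4 scalings called neither SNRK2.10, at -0.025 with median-of-ratios, nor SNRK2.3, which none of the 5 called, so the lower calls of these 2 depend on the scaling.

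**Figure D4:**
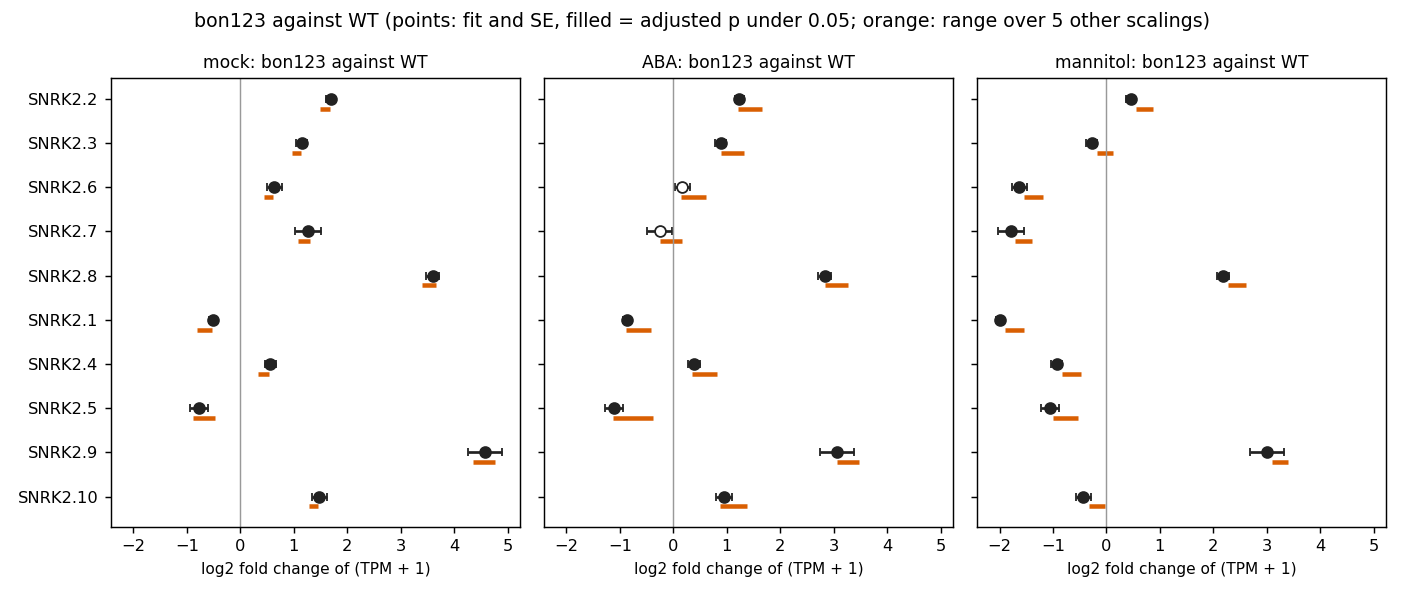
Log2 fold change of (TPM + 1), bon123 against WT, for each SnRK2 gene in mock, ABA and mannitol, with its SE, filled where the adjusted p is under 0.05; orange lines span 5 other scalings. SNRK2.8 and SNRK2.9 lie at 2.18 or more in all 3 panels, and OST1 and SNRK2.7 move from above 0 in mock to -1.63 and -1.79 under mannitol.

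The difference between the genotypes' responses was tested as an interaction, the bon123 change minus the WT change. For mannitol, the interaction was called as negative for 9 of 10 members (62.3% of all genes called, 17.0% higher and 45.3% lower). SNRK2.5, at -0.28 ± 0.24 (adjusted p = 0.336), was not called. A negative value is not always a weaker response: SNRK2.8 fell more in bon123 than in WT with both treatments (-1.87 against -0.45 with mannitol). SNRK2.7 differed most, at -3.06 ± 0.34 (adjusted p = 1.95e-06), or -2.64 relative to the median of all genes. OST1 was at -2.26 ± 0.20 (adjusted p = 2.38e-07), SNRK2.10 at -1.91 ± 0.21 and SNRK2.9 at -1.57 ± 0.45. The other 5 called members, SNRK2.4, SNRK2.1, SNRK2.3, SNRK2.8 and SNRK2.2, lay between -1.49 and -1.235. All 9 were below the median of all genes, and 8 of them were called under all 31 alternatives, the exception being SNRK2.9, which median-of-ratios scaling took to -0.97 without a call. For ABA, the interaction was called as negative for 6 of 10 members (52.6% of all genes called, 9.51% higher and 43.0% lower). SNRK2.7, at -1.53 ± 0.34 (adjusted p = 0.00144), was the one among them called with the same sign in all 31 alternatives. SNRK2.10, at -0.54 ± 0.21 (adjusted p = 0.0397), was called in 12 of the 18 fits that leave out a library. Only 3 members were called under median-of-ratios scaling, 2 of them higher and 1 lower. The values of SNRK2.1 (-0.35) and SNRK2.2 (-0.46) were near -0.44, the all-gene median. Of the 5 other scalings, 1 kept the call of SNRK2.1, 2 each kept those of SNRK2.2 and SNRK2.10, 3 kept that of SNRK2.8 and 4 that of SNRK2.9.

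Set directly against ABA, mannitol gave different levels of particular members. In WT, SNRK2.2 (0.96 ± 0.085, adjusted p = 6.27e-07), SNRK2.5 (0.82 ± 0.17, adjusted p = 0.00184), SNRK2.8 (0.67 ± 0.12, adjusted p = 0.000558) and SNRK2.3 (0.66 ± 0.10, adjusted p = 0.000182) were higher with mannitol than with ABA. SNRK2.1 was higher by 0.23 ± 0.078 (adjusted p = 0.0385), a call that 12 of the 18 fits without 1 library and 2 of 5 other scalings kept (down to 0.070 with median-of-ratios). OST1 (-0.55 ± 0.14, adjusted p = 0.00855) and SNRK2.7 (-0.84 ± 0.24, adjusted p = 0.0144) were lower with mannitol, the latter not called without WT ABA replicate 3 or WT mannitol replicate 1 or 3 (adjusted p from 0.0532 to 0.0565). These 7 calls compare with 30.1% of all genes, and the same 7 did not overlap between the treatments, as for 48.5% of all genes. In bon123, 6 members were lower with mannitol than with ABA and SNRK2.5 was higher (0.88 ± 0.17, adjusted p = 0.000249), where 70.5% of all genes were called. The treatments did not overlap for 8 members in bon123, as for 69.0% of all genes. SNRK2.7 (-2.38 ± 0.24) and OST1 (-2.34 ± 0.14) led these, followed by SNRK2.10 (-1.59 ± 0.15), SNRK2.4 (-1.29 ± 0.10), SNRK2.1 (-0.90 ± 0.078) and SNRK2.3 (-0.50 ± 0.10). The mannitol and ABA doses are not on a common scale, and the levels are set side by side only.

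The makeup of the SnRK2 transcript pool was described as each member's share of the summed TPM of the 10, which does not depend on scaling between libraries. The summed level was 272 ± 20.1 TPM in WT mock (mean ± SD, n = 3), 488 ± 31.1 TPM with ABA and 505 ± 35.2 TPM with mannitol. In bon123 it was 794 ± 48.3 TPM in mock, 764 ± 133 TPM with ABA and 439 ± 5.54 TPM with mannitol. These sums, unlike the shares, do depend on scaling between libraries. The factors by which median-of-ratios scaling divides TPM were 1.21 to 1.25 in bon123 mock and 0.63 to 0.86 in bon123 ABA. They were 0.84 to 0.89 in bon123 mannitol and 1.07 to 1.21 in WT mannitol, so the order of the sums between groups depends on the scaling. Subclass I held 63.9% ± 0.609 of the pool in WT mock and 44.0% ± 0.794 in bon123 mock. Subclass II held 9.66% ± 0.0799 in WT mock and 32.7% ± 1.06 in bon123 mock, of which SNRK2.8 alone made 30.3%, against 6.96% in WT mock. With treatment, the SNRK2.8 share in bon123 was 8.502% with ABA and 14.9% with mannitol. Subclass III held 26.5% ± 0.561 in WT mock, 27.9% ± 0.956 with ABA and 32.1% ± 0.664 with mannitol, and 23.3% ± 0.322, 28.9% ± 1.09 and 34.1% ± 1.87 in the matching bon123 groups. Inside subclass III, SNRK2.2 held the largest mean share in 5 of the 6 groups, at 12.8% in WT mock, 15.3% in WT mannitol, and 14.5%, 12.4% and 24.2% in bon123 mock, ABA and mannitol. In WT ABA OST1 was ahead, at 15.7% against 8.03% for SNRK2.2. The OST1 share was 7.53% in WT mock and 4.06% in bon123 mock, and 11.3% in bon123 ABA.

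**Figure D5:**
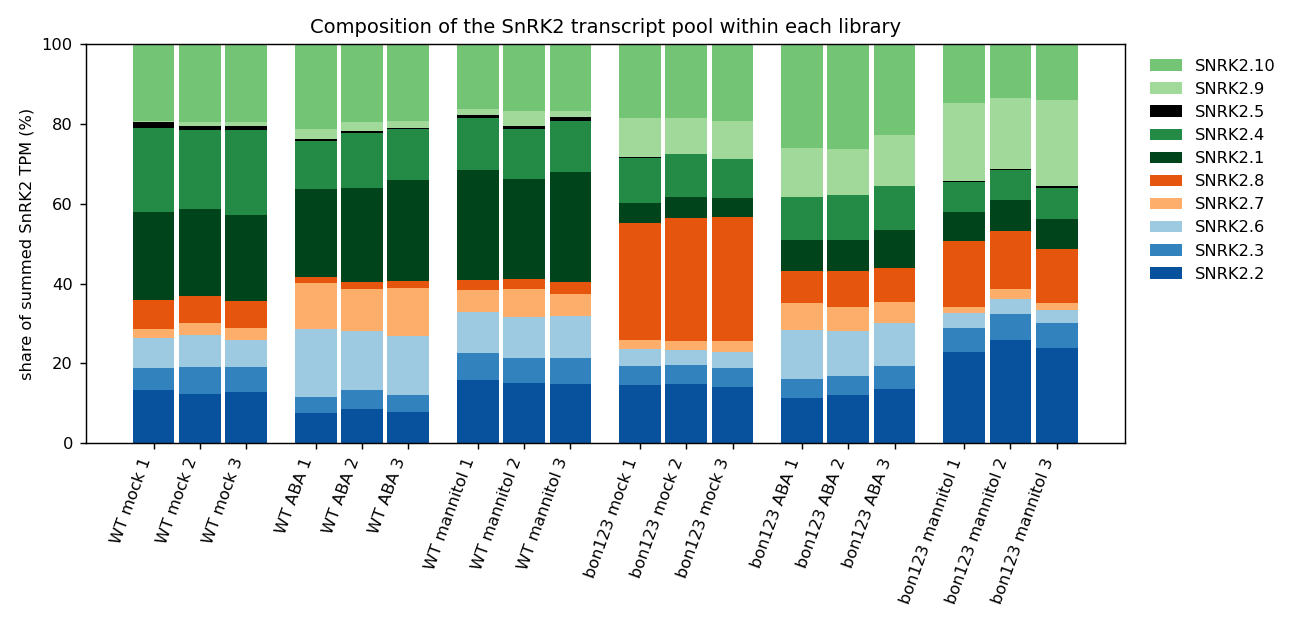
Share (%) of the summed SnRK2 TPM taken by each gene in each of the 18 libraries, blue for subclass III, orange for subclass II, green and black for subclass I. SNRK2.8 takes 30.3% on average in bon123 mock and 6.96% in WT mock, and the 3 libraries of each group resemble each other.

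Other genes of the pathway were described by counts, which stand beside the shares of all genes called: 18.9% higher and 30.6% lower with ABA in WT, 25.5% and 25.0% with mannitol in WT, 15.1% and 55.5% with ABA in bon123, 12.6% and 48.8% with mannitol in bon123, and 40.1% and 33.7% between the genotypes in mock. All 9 clade A PP2C genes rose with ABA in WT, with a median change of 3.02, and all 9 rose with mannitol in WT (2.55) and with ABA in bon123 (4.31). HAI3, a phosphatase of the HAI group, rose by 5.803 ± 0.20 with ABA in WT and by 8.604 ± 0.20 in bon123. With mannitol in bon123, 4 of the 9 rose and 2 fell, with a median of 0.40. All 9 were lower in bon123 than in WT under mannitol (median -2.88), beside 49.3% of all genes and an all-gene median of -0.36. Of 14 ABA receptor genes, 10 passed the filter. Among these, 6 fell and none rose with ABA in WT, and 7 fell and 1 rose in bon123. PYL4 fell by -3.12 ± 0.15 in WT and by -5.17 ± 0.15 in bon123 with ABA. Without stress 7 of the 10 receptors were higher in bon123 and 1 lower, led by PYL6 (3.52 ± 0.12) and PYL5 (3.29 ± 0.17).

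Of 17 RAF-like kinase genes, members of the group that phosphorylates SnRK2s, 14 passed the filter. In WT 3 rose and none fell with ABA, and 4 rose and 1 fell with mannitol. The counts that rose are near the shares of all genes that rose, 18.9% and 25.5%. In bon123 all 14 fell with mannitol, at a median of -1.41 beside -0.36 for all genes, and without stress 9 were higher and 1 lower than in WT. Of 19 genes for SnRK2 substrates, 14 rose and none fell with ABA in WT (median 0.88), and 11 rose and 1 fell with mannitol (median 0.69). ABF2, a transcription factor activated by subclass III kinases, rose by 2.15 ± 0.16 with ABA in WT, and SWEET12, a sucrose transporter, rose by 3.30 ± 0.14 with mannitol. In bon123 6 substrates rose and 4 fell with ABA, and 1 rose and 10 fell with mannitol. KAT1, a guard cell potassium channel, averaged 12.5 TPM in WT mock and 0.38 TPM in bon123 mock. The mannitol interaction was lower for 15 of the 19 and higher for 1, beside 45.3% and 17.0% of all genes.

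Of 12 genes for SnRK2 partners and regulators, 6 rose and 1 fell with ABA in WT, and 5 rose and 1 fell with mannitol. PP2-B11, an F-box protein gene linked to SnRK2.3 turnover, rose by 3.46 ± 0.20 with ABA in WT. In bon123 2 rose and 6 fell with ABA, near the share of all genes that fell, and 2 rose and 9 fell with mannitol. The 9 decapping and decay genes, on whose proteins subclass I kinases act, had 2 members that rose and 1 that fell with ABA in WT, and 1 that rose and 2 that fell with mannitol. With ABA in bon123 2 rose and 4 fell (15.1% and 55.5% of all genes). In bon123 4 of them were higher than in WT without stress (40.1% of all genes), and 5 fell with mannitol (48.8%), both near the background. DCP2 (-1.20 ± 0.093), the decapping enzyme, and the exonuclease gene XRN4 (-1.39 ± 0.24) were among those that fell. The mannitol interaction was lower for 6 of the 9 and higher for none, beside 45.3% and 17.0% of all genes.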

How the data were processed

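RNA-seq of total RNA from 18 seedling libraries in 6 groups was used. Per the submitters' processing notes, the tools were RSEM 1.3.1, HISAT2 2.1.0 and DESeq2 1.24.0, on TAIR10, with no roles stated. No source used here gives the strand setting or the read depth. The deposited table holds TPM, computed by the authors, which sum to 999989 to 999999 in each library. TPM depend on the whole RNA pool, so a rise of rRNA or a few abundant genes lowers all others.

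Groups were read from the labels. Genes reaching 1 TPM in 3 or more libraries (21727 of 33082) were fitted as log2(TPM + 1) with limma 3.58.1 trend (R 4.3.3), 1 mean per group, all 18 libraries, no block, and Benjamini-Hochberg adjustment over all genes kept, with a call at 0.05. There were 11 comparisons; mannitol against ABA in each genotype was added after values were seen. The fit was tested on simulated data. All 10 SnRK2 members are named in each comparison. Of other lists, counts and at most the 2 called genes with the largest change are named, and BON1 to BON3 check the genotype. The members and lists were chosen with earlier results of these data known. Alternatives were 5 scalings, 2 pseudocounts (0.1 and 0.5), 2 filters (none and 5 TPM), a replicate block, own groups only, library weights, no trend, and leaving out each library, 31 in all. Sequences and gene models are from RefSeq TAIR10.1, and the deposited lengths equal a RefSeq transcript length for all 10 members. No protein sequence was used here.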

Additional observations from a re-analysis of the deposited data

Results flagged for a closer look

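The interaction of genotype with treatment, tested for each SnRK2 gene as the bon123 change minus the WT change on the log2(TPM + 1) scale with limma, was called for the members below. With ABA, the values were -0.35 for SNRK2.1, -0.46 for SNRK2.2, -1.53 for SNRK2.7, -0.77 for SNRK2.8, -1.52 for SNRK2.9 and -0.54 for SNRK2.10. In this comparison 52.6% of all genes were called, and the median of all genes was -0.44, so 6 of 10 members is near the background. The ABA calls depend on the scaling: SNRK2.7 was called in all 5 other scalings, SNRK2.9 in 4, SNRK2.8 in 3, SNRK2.2 and SNRK2.10 in 2 and SNRK2.1 in 1, and SNRK2.1, SNRK2.2 and SNRK2.10 turned to 0.25, 0.15 and 0.073 with median-of-ratios. With mannitol, they were -1.48 for SNRK2.1, -1.235 for SNRK2.2, -1.42 for SNRK2.3, -1.49 for SNRK2.4, -2.26 for SNRK2.6 (OST1), -3.06 for SNRK2.7, -1.42 for SNRK2.8, -1.57 for SNRK2.9 and -1.91 for SNRK2.10. Here 62.3% of all genes were called, with a median of -0.42 over all genes, and all 9 were called in at least 4 of the 5 other scalings. SNRK2.7, OST1 and SNRK2.10 rose with mannitol in all 3 WT libraries against mock and were lower in all 3 bon123 libraries, without overlap. SNRK2.1 and SNRK2.3 did the same in TPM, but their direction in bon123 depends on the scaling.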

How the results depend on the processing

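Of the 110 member results, 69 kept direction and call under every alternative run, and the cause of the other changes was not tested. Without 1 library, counts of members called ranged from 6 to 8 for ABA in WT, 8 to 9 for mannitol in WT, 6 to 7 for ABA in bon123, 5 to 7 for the ABA interaction, 5 to 7 for mannitol against ABA in WT, and 8 to 10 for the genotypes under mannitol. The ABA interaction counted 3 members instead of 6 with median-of-ratios scaling, with upper-quartile scaling and with the length trend removed. The labels do not say whether equal replicate numbers mark a pairing, and correlations of deviations from the group means cannot settle it. Same-number pairs had a median correlation of -0.028, and 7 of 45 were over 0.1. Pairs of different number had a median of 0.004, and 16 of 90 were over 0.1. The replicate block lost 3 calls, SNRK2.10 with ABA in bon123 (0.34, adjusted p = 0.0614), SNRK2.1 for mannitol against ABA in WT (0.23, adjusted p = 0.0572) and SNRK2.10 in the ABA interaction (-0.54, adjusted p = 0.0508), and changed no other call. The filter at 5 TPM dropped SNRK2.5. In the fit with library weights, 1 bon123 ABA library took a weight of 619, so that group's values rest on it alone.

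The following values reversed. With ABA in bon123, SNRK2.2 became 0.38 (median-of-ratios) and 0.23 (length), and SNRK2.4 became 0.66 (median-of-ratios), 0.27 (upper-quartile), 0.11 (quantile), 0.52 (length) and 0.13 (library weights). Without 1 library, SNRK2.3 ranged there from -0.023 to 0.086 and SNRK2.4 from -0.096 to 0.14. With mannitol in bon123, SNRK2.1 became 0.20, 0.11, 0.10 and 0.13 and SNRK2.2 0.40, 0.31, 0.082 and 0.25 under median-of-ratios, upper-quartile, quantile and length. SNRK2.3 became 0.027 (median-of-ratios) and SNRK2.5 ranged from -0.080 to 0.27 without 1 library. For bon123 against WT, SNRK2.7 with ABA became 0.16 under both median-of-ratios and length, and SNRK2.3 with mannitol 0.13 (median-of-ratios), 0.030 (quantile) and 0.058 (length). For mannitol against ABA in WT, SNRK2.4 became -0.13 (median-of-ratios), -0.041 (upper-quartile), -0.091 (length) and -0.011 to 0.069 without 1 library, and SNRK2.9 ranged from -0.54 to 0.22 without 1 library. In bon123, SNRK2.8 became -0.15 (median-of-ratios), -0.099 (length), -0.18 (library weights), and -0.14 to 0.12 without 1 library, and SNRK2.9 0.018 (upper-quartile) and 0.015 (quantile). In the ABA interaction, median-of-ratios gave 0.25 for SNRK2.1, 0.15 for SNRK2.2, 0.34 for SNRK2.3, 0.43 for SNRK2.4, 0.14 for SNRK2.6 and 0.073 for SNRK2.10. SNRK2.4 was 0.086 (upper-quartile), 0.034 (quantile) and 0.29 (length), SNRK2.5 was 0.093 (quantile) and 0.11 (length), and SNRK2.1 and SNRK2.3 were 0.11 and 0.19 (length). In the mannitol interaction, SNRK2.5 was 0.090 (median-of-ratios), 0.0019 (upper-quartile) and 0.096 (length).

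Leaving SNRK2.9 out of the summed pool moved the subclass I share to 58.3% (58.26) in WT ABA, 58.2% (58.25) in WT mannitol, 38.2% in bon123 mock, 50.5% in bon123 ABA and 36.8% in bon123 mannitol. Subclass III then held 32.9% (32.85) in WT mannitol, 25.7% in bon123 mock, 32.9% (32.92) in bon123 ABA and 42.4% (42.35) in bon123 mannitol, and subclass II held 9.74%, 36.0%, 16.6% and 20.8% in WT mock, bon123 mock, bon123 ABA and bon123 mannitol.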

Other observations

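The related SnRK3 kinases (CIPKs), which act with calcineurin B-like calcium sensors, had 26 of 26 listed genes above the filter. Over all genes the shares called were 18.9% higher and 30.6% lower with ABA in WT, 25.5% and 25.0% with mannitol in WT, 15.1% and 55.5% with ABA in bon123, 12.6% and 48.8% with mannitol in bon123, and 40.1% and 33.7% for bon123 against WT in mock. With ABA in WT 16 rose and 1 fell, with a median change of 0.52, and with mannitol 13 rose and 2 fell (0.48). CIPK5 rose by 2.25 ± 0.089 and CIPK6 by 1.92 ± 0.15 with ABA in WT. In bon123 13 rose and 8 fell with ABA, and 6 rose and 15 fell with mannitol (median -0.58). Without stress 17 were higher and 5 lower in bon123 than in WT, among them CIPK25 (4.18 ± 0.17) and CIPK20 (-3.88 ± 0.10). The catalytic SnRK1 gene KIN10, which encodes an energy-sensing kinase, rose in WT by 0.84 ± 0.15 with ABA and 0.89 ± 0.15 with mannitol. In bon123 KIN10 fell with mannitol (-0.89 ± 0.15), as did KIN11 (-0.89 ± 0.14).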
